A study of Homo sapiens with 9 samples.

Results

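The genes described here are 33 members of the Hippo pathway and its YAP-TEAD response, chosen by symbol from a list of 35 symbols in which CCN1 and CCN2 also stood under their older names CYR61 and CTGF. All 33 were found among the 57733 genes of the tables, with CCN1 listed as CYR61 and CCN2 as CTGF. Nascent RNA was measured in PANC-1, a human pancreatic carcinoma cell line, in KO C22 and KO C28, clones with a CRISPR/Cas9 knockout of KDM6A, and in WT cells that received no guide RNA. KDM6A (UTX) is a histone demethylase that acts on a repressive mark of Polycomb complexes. Bru-seq captured RNA labelled for 30 min with 2 mM bromouridine and collected with a chase of 0 h, with 2 libraries per line. BruUV-seq added 100 J/m2 of UV light before labelling, with 1 library per line, so that the series holds 9 libraries. Each knockout line is 1 clone, so a property of the clone cannot be told apart from an effect of the gene aimed at, and the labels do not say whether the WT cells are a clone.

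The Hippo pathway is a kinase cascade that reads cell contact, tension and polarity. The kinases STK3 and STK4 with the scaffold SAV1 activate LATS1 and LATS2, which with MOB1A or MOB1B phosphorylate the coactivators YAP1 and WWTR1 (TAZ) and keep them out of the nucleus. Where the cascade is idle, YAP1 and WWTR1 enter the nucleus, bind the TEAD factors on DNA and raise response genes such as CCN1, CCN2 and ANKRD1.

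The TEAD factors bind a motif with the letters GGAATG, and promoter windows were read for it on both strands. RefSeq (GRCh38.p14) gave a window, 250 bases before to 50 after the annotated start, for 26 of the 33 members. CCN1, TEAD1, TEAD4, CRIM1, DLC1, STK3 and ASAP1 had no entry. GGAATG was present in 5 of the 26 windows (19.2%), against 14.0% of 35116 promoters. Those of CCN2, ANKRD1 and NUAK2 held it more than once, and those of YAP1 and LATS2 once. The windows of ANKRD1 and AMOTL1 are shown because these members lay furthest below WT in KO C28, that of CCN2 as a response gene with 3 matches, and that of NUAK2 because its level was highest in the Bru-seq libraries of KO C22. Capitals mark GGAATG or its reverse complement CATTCC.
ANKRD1 (chr10:90921038-90921337, minus strand): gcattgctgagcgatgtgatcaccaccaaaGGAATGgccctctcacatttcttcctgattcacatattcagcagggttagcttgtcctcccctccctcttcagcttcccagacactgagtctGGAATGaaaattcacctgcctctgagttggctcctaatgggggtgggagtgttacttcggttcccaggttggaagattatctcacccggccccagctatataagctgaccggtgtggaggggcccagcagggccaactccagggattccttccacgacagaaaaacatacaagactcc
CCN2 (chr6:131951323-131951622, minus strand): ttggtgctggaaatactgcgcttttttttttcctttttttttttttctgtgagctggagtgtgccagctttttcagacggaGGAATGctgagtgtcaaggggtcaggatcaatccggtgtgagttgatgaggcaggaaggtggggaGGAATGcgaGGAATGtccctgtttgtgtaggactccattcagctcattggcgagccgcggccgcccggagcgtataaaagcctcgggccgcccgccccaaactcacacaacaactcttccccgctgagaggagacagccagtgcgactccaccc
NUAK2 (chr1:205321696-205321995, minus strand): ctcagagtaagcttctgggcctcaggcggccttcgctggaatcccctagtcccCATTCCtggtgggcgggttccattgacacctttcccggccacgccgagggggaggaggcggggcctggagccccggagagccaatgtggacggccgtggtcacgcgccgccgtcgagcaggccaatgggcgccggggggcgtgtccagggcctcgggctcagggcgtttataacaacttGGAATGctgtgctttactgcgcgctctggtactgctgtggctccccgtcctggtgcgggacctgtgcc
AMOTL1 (chr11:94768106-94768405, plus strand): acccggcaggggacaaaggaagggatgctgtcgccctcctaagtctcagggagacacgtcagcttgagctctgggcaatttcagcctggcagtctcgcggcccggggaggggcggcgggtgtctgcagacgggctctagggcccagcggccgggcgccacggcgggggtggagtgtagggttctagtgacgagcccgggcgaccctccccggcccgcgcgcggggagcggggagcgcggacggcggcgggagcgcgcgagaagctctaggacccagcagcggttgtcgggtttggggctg
Counted from the start of the gene, the first bases of the matches lay at -220 and -128 for ANKRD1, at -169, -104 and -95 for CCN2, and at -197 (CATTCC) and -18 for NUAK2. The window of AMOTL1 did not hold these letters. The AP-1 motif TGANTCA, which is its own reverse complement and overlapped none of the TEAD matches, was present in 3 member windows, those of ANKRD1, F3 and MOB1B, against 7.71% of all promoters. The RefSeq start of ANKRD1 lay 189 bases inside the deposited gene, and the starts of the other 3 genes shown lay within 46 bases of the deposited ones.

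KDM6A itself stayed transcribed in every library. It gave 259 and 430 CPM (reads relative to 1 M reads in genes, with library sizes scaled by TMM) in Bru-seq of KO C22, 325 and 81.7 CPM in KO C28 and 317 and 276 CPM in WT. Totals per gene are blind to a lesion of a few bases, so this is no check of the labels. Reads in genes ran from 14.4 to 31.1 M per library except for Bru-seq KO C28 replicate 2, which had 5.64 M. That library had 46.5% of its reads outside genes (9.93% to 20.01% in the others) and correlated with the others, across genes, at 0.648 to 0.795. Summed epithelial keratins, EPCAM and VIM stood at 628 to 4209 CPM, while summed markers reached at most 8.14 CPM for leukocytes, 21.96 CPM for endothelium and 7.22 CPM for fibroblasts. Within the first sum the mesenchymal gene VIM gave 477 to 1661 CPM, and KRT8, KRT18 and KRT19 gave 22.3 to 950 CPM. KRT7 (1.31 to 18.1 CPM) and EPCAM (1.86 to 16.5 CPM) were low. CDKN2A, known to be deleted in PANC-1, had at most 1 read in a library.

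Members spanned a wide range of nascent RNA. Per length, as RPKM (reads per kilobase of gene, scaled to the library total), the secreted matricellular proteins CCN1 and CCN2 led WT Bru-seq, CCN1 with 82.9 and 99.9 RPKM and CCN2 with 8.25 and 20.2 RPKM. ARHGAP29 followed with a mean of 12.1 RPKM, WWTR1 with 10.3, the transmembrane protein CRIM1 with 9.64 and the ectonucleotidase NT5E with 8.97. The intervals between the lowest and highest library overlapped for CCN2 and each of these 4, so their order is not settled. YAP1 stood at 3.53 and 4.48 RPKM. At the low end were AMOT with a mean of 0.129 RPKM, DLC1 with 0.0239 and the TEAD cofactor VGLL3 with 0.00350. CCN1 exceeded 99.97% of the genes with reads in WT Bru-seq, and VGLL3 exceeded 9.09% of them. Lengths in the tables omit part of some genes, which for AJUBA was 58.8% of its span and sets its RPKM.

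Within paralogue pairs the balance was alike in several cases and loose in others. The ratio of STK3 to STK4 per length stayed between 0.269 and 0.367 over the 9 libraries. WWTR1 exceeded YAP1 in every library, with YAP1 over WWTR1 between 0.274 and 0.796. TEAD1 exceeded TEAD4 in every library, by 1.31 to 5.80 times, and CCN1 exceeded CCN2 by 4.31 to 15.7 times. MOB1A exceeded MOB1B by 2.39 to 6.38 times in 8 libraries and by 12.5 times in KO C28 replicate 2. LATS1 stood above LATS2 in 8 libraries, and in KO C22 replicate 2 the ratio was 0.889. Genes on the other strand cover 14.6% of LATS2, 13.4% of CCN2 and 10.5% of TEAD2, and the libraries are strand-specific per the labels while the sources used here do not give the counting setting, so reads of these 3 may include others.

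**Figure D1:**
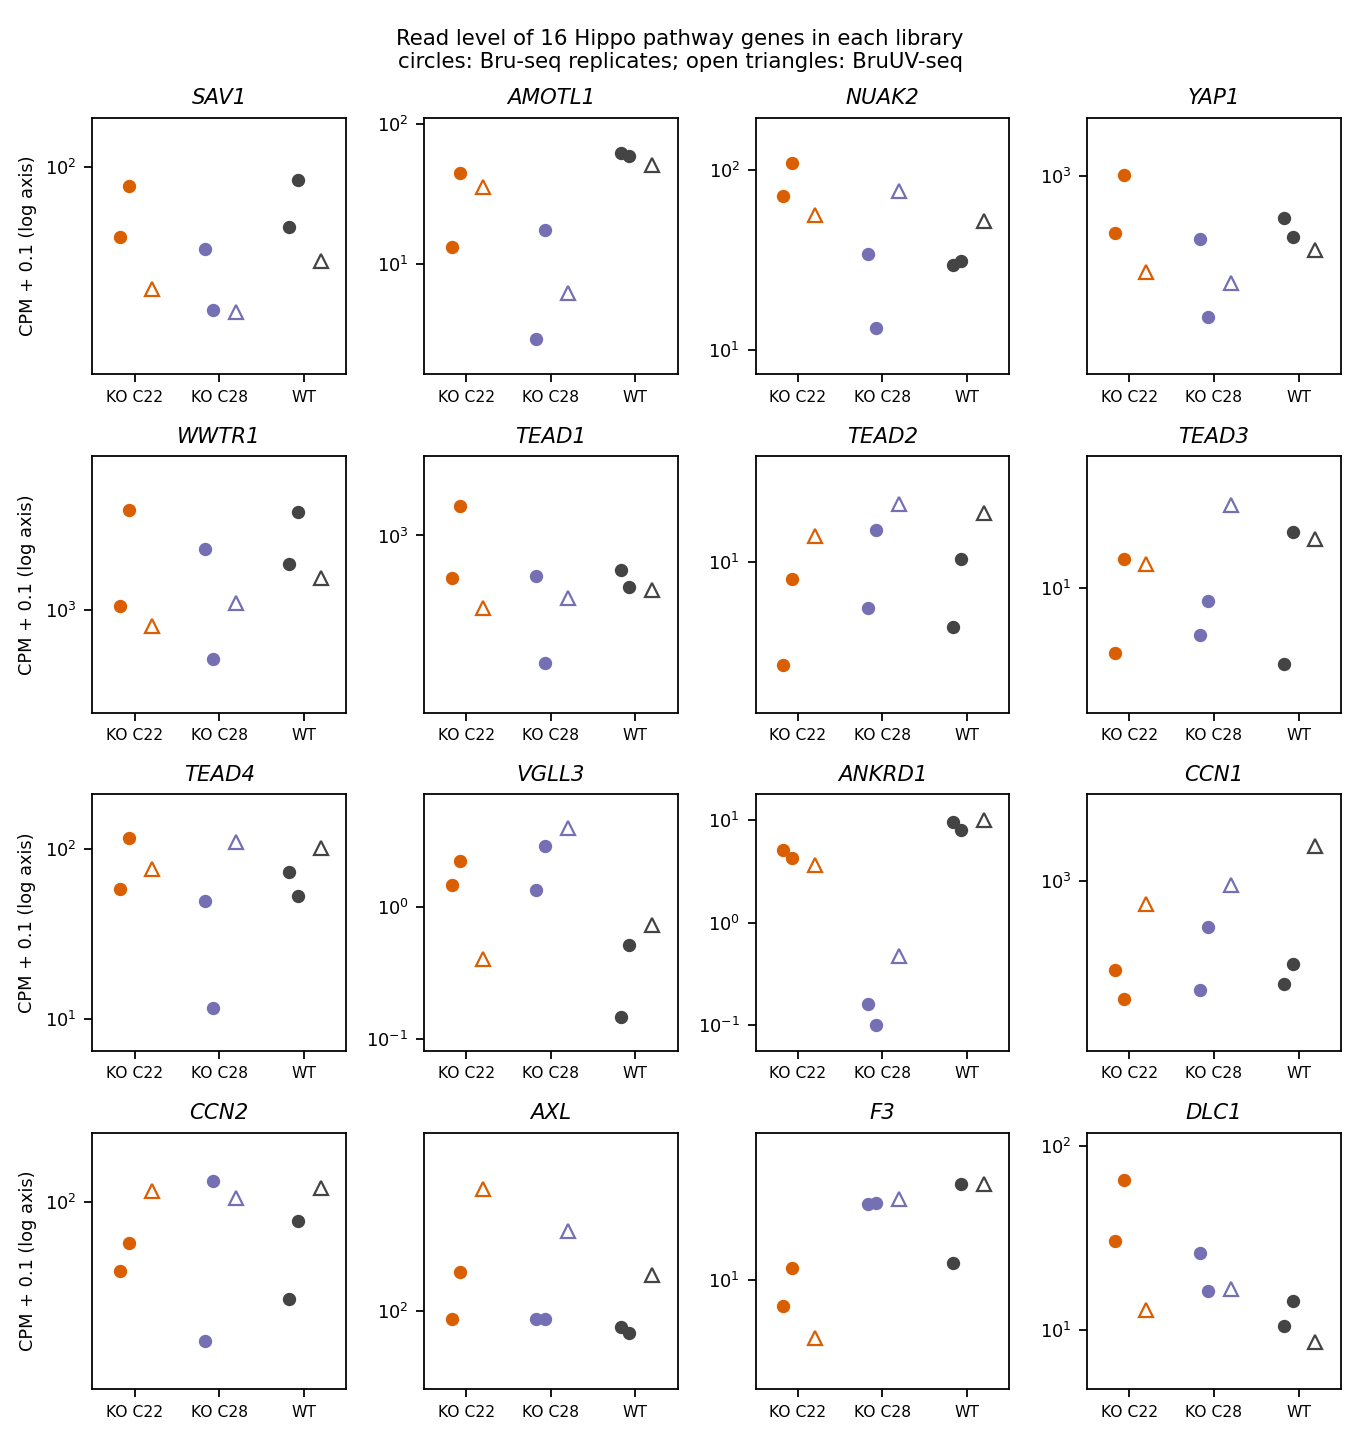
Read level (CPM + 0.1, log axis, scaled separately per panel) of 16 members in KO C22 (orange), KO C28 (purple) and WT (dark grey); filled circles are the Bru-seq replicates and open triangles the BruUV-seq library of each line. ANKRD1 lies below 0.5 CPM in all 3 KO C28 libraries and above 3 CPM in the other 6, and the KO C22 Bru-seq replicates of WWTR1 lie at 1045 and 3000 CPM.

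For KO C22 against WT, the question was whether the pathway or its response was transcribed differently in the knockout clone. In Bru-seq, 23 of 33 members lay above WT and 10 below, with a median log2 fold change of 0.28 against 0.07 over all 22827 genes tested, of which 53.5% lay above WT. By edgeR's quasi-likelihood test with Benjamini-Hochberg adjustment at 0.05 (n = 2 libraries per line), 0 members passed, as did 0.0% of all genes in the higher and 0.00438% in the lower direction, and DESeq2 and limma-voom also called 0 members. At an unadjusted p under 0.05, NUAK2 and DLC1 were higher, where 1.24% of all genes were higher and 0.767% lower. With BruUV-seq in the same fit (3 libraries per line), 20 members lay above WT and 13 below at a median of 0.16 (all 23443 genes 0.03), and again 0 members passed by edgeR, DESeq2 or limma-voom, against 0.107% of all genes higher and 0.0512% lower. At an unadjusted p under 0.05 in that fit 3 members were higher (NUAK2, AXL and DLC1) and 1 lower (F3), where 2.59% of all genes were higher and 2.76% lower. These medians rest on 1 library: without Bru-seq KO C22 replicate 2 they were -0.04 in Bru-seq and -0.11 with both assays. Both clones are set against the same WT libraries, so their values are not independent. In these bulk libraries fewer cells of a kind and less RNA per cell cannot be told apart.

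For KO C28 against WT, more members lay below WT. In Bru-seq 7 of 33 lay above and 26 below, with a median log2 fold change of -0.72 against -0.08 over all genes, of which 47.3% lay above WT. By edgeR 0 members passed, against 0.0% of all genes higher and 0.00438% lower, and DESeq2 called 1 member (1.3% of the 15746 genes it gave an adjusted p) and limma-voom 0. Unadjusted p under 0.05 was met by 2 members, ANKRD1 and AMOTL1, both lower, where 4.65% of all genes were higher and 1.63% lower. The median rests on KO C28 replicate 2: without it the median was -0.26, and without replicate 1 it was -1.67. With both assays 12 members lay above WT and 21 below, with a median of -0.39 (all genes 0.08). Here too 0 members passed by edgeR (all genes 0.0725% higher, 0.0256% lower), limma-voom called 0 and DESeq2 called 2, ANKRD1 and AMOTL1 (all genes 3.91%). In that fit 1 member was higher at an unadjusted p under 0.05 (VGLL3) and 3 were lower (ANKRD1, AMOTL1 and SAV1), where 8.1% of all genes were higher and 2.64% lower. Without KO C28 replicate 2 the median was -0.13, and ANKRD1 and AMOTL1 passed as lower, against 0.123% of 21986 genes lower and 0.182% higher. Leaving out that library moved the log2 fold change of 25 of the 33 members by over 1.5 times and turned the sign of 5. Without BruUV-seq KO C28 the median was -0.63.

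**Figure D2:**
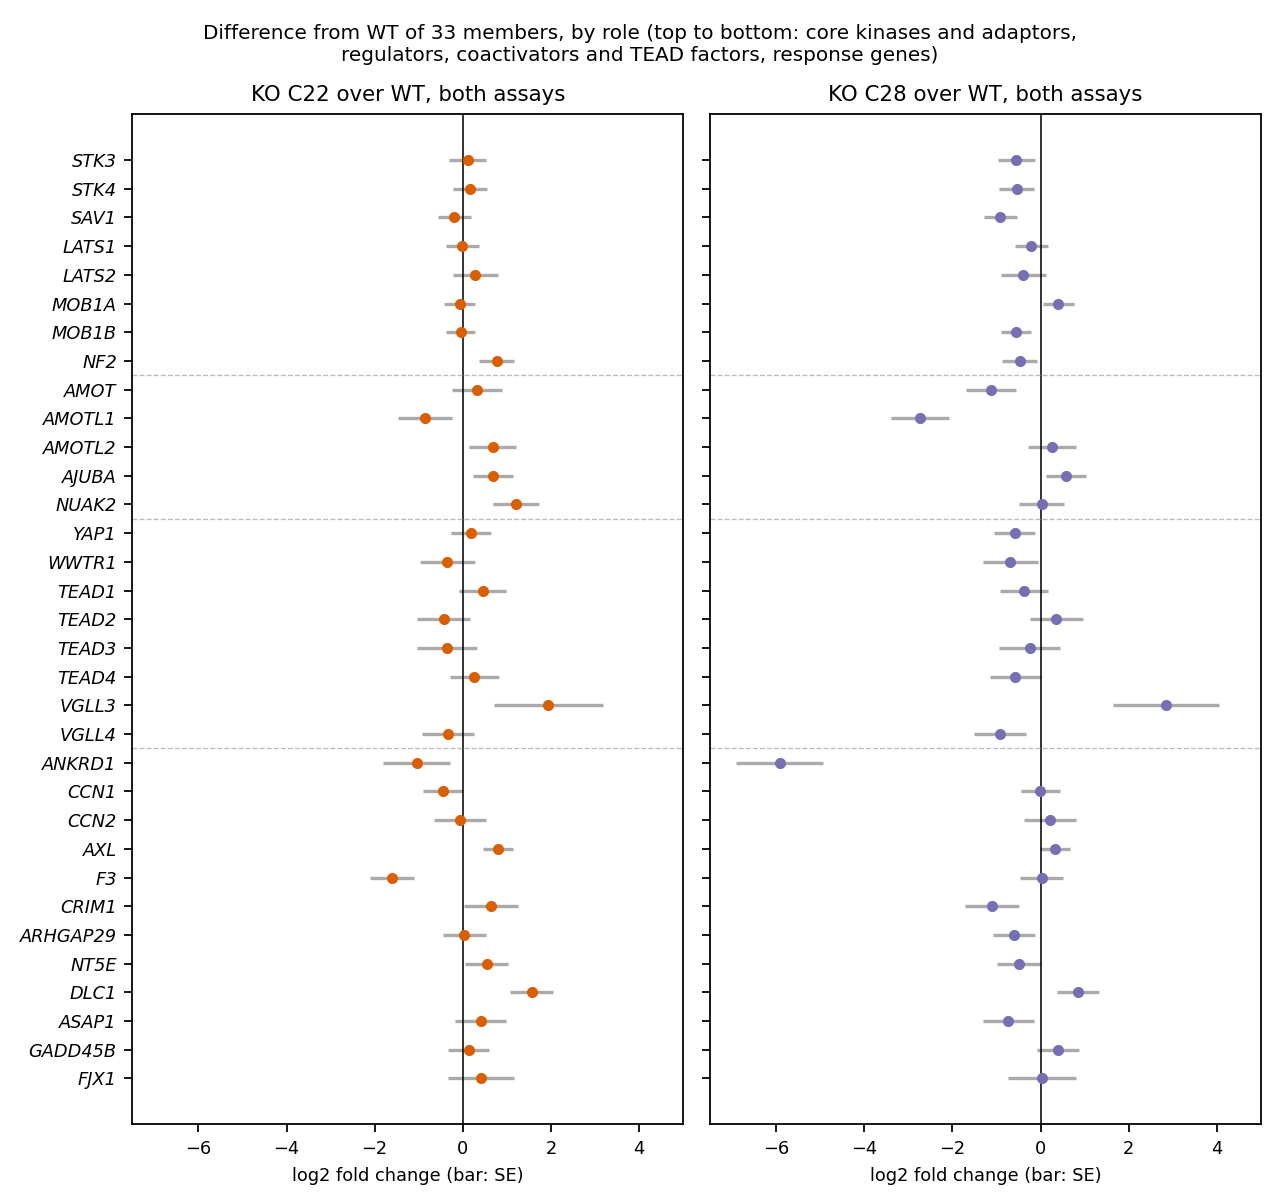
Log2 fold change of each of the 33 members in KO C22 over WT (left) and KO C28 over WT (right), from the edgeR fit of both assays; bars are standard errors, and dashed lines part the roles. In KO C28 the point of ANKRD1 lies at -5.92 and that of AMOTL1 at -2.74, and in KO C22 all points lie between -1.60 and 1.94.

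In the core of the cascade no member passed the adjusted test. Of its 8 members (STK3, STK4, SAV1, LATS1, LATS2, MOB1A, MOB1B and NF2) 4 lay above and 4 below WT in KO C22 with both assays, between -0.19 for SAV1 and 0.77 for NF2, the membrane scaffold merlin. In KO C28 only MOB1A lay above WT (0.41) and the other 7 lay below, with a median of -0.50. That count rests on KO C28 replicate 2: without it LATS1 (0.13) and LATS2 (0.05) also lay above WT and the median was -0.19. SAV1 gave 51.5 and 83.1 CPM in KO C22, 45.9 and 25.6 CPM in KO C28 and 56.4 and 88.7 CPM in WT in Bru-seq. Its BruUV-seq levels were 31.4 CPM in KO C22, 25.1 CPM in KO C28 and 41.0 CPM in WT. SAV1 was thus lowest in KO C28 within each assay, with no overlap with WT, at a log2 fold change of -0.91 (SE 0.37, edgeR adjusted p = 0.459, n = 3 libraries per line). The kinase genes STK3 (-0.55, SE 0.42), STK4 (-0.54, SE 0.40) and LATS1 (-0.21, SE 0.37) lay nearer to WT in that clone, and without KO C28 replicate 2 they lay at -0.19 (STK3), -0.19 (STK4) and 0.13 (LATS1), with SAV1 at -0.62.

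Among the regulators, AMOTL1 and NUAK2 stood apart. AMOTL1, a junction scaffold of the angiomotin family that binds YAP1, lies on chromosome 11 (94768342 to 94876753, plus strand). It gave 13.2 and 44.5 CPM in Bru-seq of KO C22, 2.83 and 17.4 CPM in KO C28 and 61.7 and 59.0 CPM in WT. BruUV-seq gave 35.6 CPM in KO C22, 6.07 CPM in KO C28 and 51.0 CPM in WT. Every KO C28 library lay below every WT library, and in KO C22 too all 3 libraries lay below WT of either assay. The log2 fold change was -2.74 (SE 0.66, edgeR adjusted p = 0.253) in KO C28 and -0.86 (SE 0.62, adjusted p = 0.995) in KO C22 with both assays. Without KO C28 replicate 2 the KO C28 value was -3.75 (SE 0.57, adjusted p = 0.0316). In that library AMOTL1 had 113 reads, against 67.6 reads that its length would collect at the library's background density, the 25th percentile of read density over genes of at least 50 kb. The 10 nearest tested genes with a mean of at least 100 reads, 5 on each side over 1.66 Mb, had a median of -0.33 in KO C28, between -0.93 and 0.44.

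NUAK2, an AMPK-related kinase reported as a YAP response gene that also acts back on LATS, gave 71.7 and 109 CPM in Bru-seq of KO C22, 34.2 and 13.1 CPM in KO C28 and 29.5 and 31.1 CPM in WT. In BruUV-seq it stood at 56.0 CPM in KO C22, 76.4 CPM in KO C28 and 52.4 CPM in WT. The KO C22 levels were above WT by over 2 times in Bru-seq and near WT after UV light. Its log2 fold change in KO C22 was 1.60 (SE 0.69, edgeR adjusted p = 1) in Bru-seq and 1.22 (SE 0.52, adjusted p = 0.880) with both assays. Of the other regulators, AMOT lay at 0.32 in KO C22 and -1.12 in KO C28 with both assays. AMOTL2 lay at 0.68 in KO C22 and 0.26 in KO C28. AJUBA, a LIM protein that restrains LATS, lay at 0.69 in KO C22 and 0.59 in KO C28. Standard errors were 0.45 to 0.57. For AMOTL2 the assays differed in sign, with 0.97 in Bru-seq and -0.25 in BruUV-seq for KO C22. In KO C28 it lay at -0.46 in Bru-seq and 0.99 in BruUV-seq. Without KO C28 replicate 2 the KO C28 values with both assays were -1.04 for AMOT, 0.61 for AMOTL2 and 0.25 for AJUBA.

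The coactivators' replicates lay far apart. YAP1 gave 553 and 1011 CPM in Bru-seq of KO C22, 519 and 233 CPM in KO C28 and 644 and 532 CPM in WT, and in BruUV-seq 371 CPM in KO C22, 331 CPM in KO C28 and 467 CPM in WT. The KO C28 libraries were the lowest within each assay, at a log2 fold change of -0.59 (SE 0.46, edgeR adjusted p = 0.612, both assays). Without KO C28 replicate 2 this was -0.24 (SE 0.35). WWTR1 gave 1045 and 3000 CPM in Bru-seq of KO C22, 1959 and 587 CPM in KO C28 and 1662 and 2918 CPM in WT, and in BruUV-seq 844 CPM in KO C22, 1076 CPM in KO C28 and 1428 CPM in WT. In Bru-seq its lines overlapped, and the log2 fold changes were -0.35 (SE 0.62) for KO C22 and -0.68 (SE 0.62) for KO C28, the second moving to -0.23 (SE 0.46) without KO C28 replicate 2.

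The TEAD genes were likewise scattered. TEAD1 gave 607 and 1423 CPM in Bru-seq of KO C22, 620.1 and 221 CPM in KO C28 and 668 and 543 CPM in WT, with 426 CPM in KO C22, 475 CPM in KO C28 and 524 CPM in WT in BruUV-seq. TEAD4 gave 58.0 and 116 CPM in Bru-seq of KO C22, 49.0 and 11.5 CPM in KO C28 and 72.3 and 52.6 CPM in WT, with 76.3 CPM in KO C22, 109 CPM in KO C28 and 100.2 CPM in WT in BruUV-seq. For both, KO C28 replicate 2 was the lowest library of all 9. TEAD4 had 75 reads in that library, against 50.7 reads that its length would collect at background density. TEAD2 gave 2.74 and 7.998 CPM in KO C22, 5.54 and 14.6 CPM in KO C28 and 4.39 and 10.2 CPM in WT in Bru-seq, and 13.6 CPM in KO C22, 20.2 CPM in KO C28 and 18.0 CPM in WT in BruUV-seq. TEAD3 gave 4.49 and 14.0 CPM in KO C22, 5.54 and 8.44 CPM in KO C28 and 3.92 and 19.5 CPM in WT in Bru-seq, and 13.3 CPM in KO C22, 26.9 CPM in KO C28 and 17.8 CPM in WT in BruUV-seq. In Bru-seq the 3 lines overlapped for TEAD2 and TEAD3, and the log2 fold changes of the 4 TEAD genes with both assays lay between -0.43 and 0.45 in KO C22 and between -0.57 and 0.36 in KO C28, with standard errors of 0.54 to 0.69. Without KO C28 replicate 2 the KO C28 values lay between -0.13 and 0.05.

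Of the TEAD cofactors, VGLL4, which competes with YAP1 for TEAD binding, had log2 fold changes of -0.34 (SE 0.59) for KO C22 and -0.91 (SE 0.59) for KO C28, or -0.45 (SE 0.51) without KO C28 replicate 2. VGLL3 was close to silent. It had 28 and 47 reads in Bru-seq of KO C22, 20 and 18 reads in KO C28 and 1 and 10 reads in WT, and in BruUV-seq 4 reads in KO C22, 72 reads in KO C28 and 15 reads in WT. Its log2 fold change in KO C28 with both assays was 2.85 (SE 1.19, edgeR adjusted p = 0.459). Its Bru-seq reads did not exceed background density in WT replicate 1, KO C22 replicate 1 and KO C28 replicate 2. At that density its length would collect 10.2, 29.7 and 33.1 reads in these libraries. Bru-seq WT replicate 2 (6.25 reads at background) and BruUV-seq KO C22 (2.84) lay within 2 times background. Most of its Bru-seq difference, including the WT level, is therefore not resolved, whereas the 72 reads of BruUV-seq KO C28 compared with 4.12 at background.

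Among the response genes, ANKRD1 had the largest difference. ANKRD1, a nuclear ankyrin-repeat protein known as a stretch-induced cofactor, lies on chromosome 10 (90912096 to 90921276, minus strand), and its promoter window, shown above, holds GGAATG at 2 places. It gave 102 and 94 reads in Bru-seq of KO C22, 1 and 0 reads in KO C28 and 209 and 195 reads in WT. BruUV-seq gave 47 reads in KO C22, 7 reads in KO C28 and 237 reads in WT. In CPM these were 4.98, 4.20 and 3.56 in KO C22, 0.0616, 0 and 0.373 in KO C28 and 9.42, 8.01 and 9.87 in WT, the BruUV-seq library last in each. The 3 lines did not overlap, with KO C28 lowest, KO C22 between and WT highest, in both assays.

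After scaling for library size the ratio of WT to KO C28 reads was 197 in Bru-seq (95% counting interval 35.2 to 7814) and 26.5 in BruUV-seq (12.7 to 66.6), so that KO C28 had the fewer. These intervals are exact and cover counting error alone. The log2 fold change in KO C28 was -7.63 (SE 1.46, edgeR adjusted p = 0.557, unadjusted p = 0.000269, n = 2 per line) in Bru-seq and -5.92 (SE 0.99, adjusted p = 0.0684, unadjusted p = 8.8e-05) with both assays. Fitted folds of a gene with 1 and 0 reads depend on the prior count. The adjusted p lay between 0.0279 and 0.312 when a library was left out of the fit of both assays, and was under 0.05 without KO C28 replicate 2 or without Bru-seq KO C22 replicate 2. DESeq2 gave 1.8e-08 and limma-voom 0.0906 for the same comparison. In KO C22 the log2 fold change was -1.05 (SE 0.77, adjusted p = 0.995). The 10 nearest tested genes with at least 100 reads on average, over 2.88 Mb, had a median of -0.28 in KO C28, between -0.81 and 1.41, and 0 of them had an unadjusted p under 0.05 by edgeR.

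CCN1 and CCN2 are the response genes most used as read-outs of YAP1, and neither passed the test in a clone. CCN1 (chromosome 1, 85580761 to 85583962, plus strand) gave 363 and 262 CPM in Bru-seq of KO C22, 292 and 596 CPM in KO C28 and 311 and 392 CPM in WT, and in BruUV-seq 769.6 CPM in KO C22, 951 CPM in KO C28 and 1486 CPM in WT. CCN2, with 3 GGAATG matches in its window, gave 43.4 and 60.8 CPM in KO C22, 18.6 and 128 CPM in KO C28 and 30.9 and 79.3 CPM in WT in Bru-seq, and 114 CPM in KO C22, 105 CPM in KO C28 and 119 CPM in WT in BruUV-seq. In Bru-seq the lines overlapped for both genes. With both assays the log2 fold changes of CCN1 were -0.45 (SE 0.44) for KO C22 and 0.00 (SE 0.45) for KO C28, and those of CCN2 were -0.07 (SE 0.59) for KO C22 and 0.22 (SE 0.60) for KO C28. In KO C28 these values rest on replicate 2, which had the highest CCN2 level of that line (128 CPM). Without it CCN2 lay below WT, at -0.81 (SE 0.48, edgeR adjusted p = 1.00) with both assays and -1.60 (SE 0.70) in Bru-seq, and CCN1 at -0.36 (SE 0.35) with both assays.

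AXL, a receptor tyrosine kinase, gave 91.2 and 150.02 CPM in Bru-seq of KO C22, 91.2 and 92.0 CPM in KO C28 and 84.4 and 78.9 CPM in WT. BruUV-seq gave 359 CPM in KO C22, 231 CPM in KO C28 and 145 CPM in WT. Both clones lay above WT without overlap in either assay, at log2 fold changes of 0.81 (SE 0.34, edgeR adjusted p = 0.875) in KO C22 and 0.32 (SE 0.34, adjusted p = 0.714) in KO C28.

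F3, tissue factor, the initiator of coagulation, gave 7.33 and 11.3 CPM in Bru-seq of KO C22, 23.8 and 24.0 CPM in KO C28 and 12.0 and 29.7 CPM in WT. BruUV-seq gave 5.08 CPM in KO C22, 25.1 CPM in KO C28 and 29.8 CPM in WT. F3 was below WT in all KO C22 libraries, at -1.60 (SE 0.50, edgeR adjusted p = 0.539), while KO C28 lay at 0.02 (SE 0.48). DLC1 gave 30.3 and 65.3 CPM in Bru-seq of KO C22, 26.2 and 16.3 CPM in KO C28 and 10.5 and 14.3 CPM in WT, and in BruUV-seq 12.8 CPM in KO C22, 16.6 CPM in KO C28 and 8.499 CPM in WT. Its levels were low for its length, and the 106 reads of KO C28 replicate 2 were below the 269 reads that its length would collect at background density. DLC1 lay at 1.56 (SE 0.49, adjusted p = 0.547) in KO C22 and 0.86 (SE 0.48, adjusted p = 0.504) in KO C28.

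The other response genes, CRIM1, ARHGAP29, NT5E, the Arf regulator ASAP1, the stress-induced GADD45B and FJX1, the human relative of a fly Fat pathway regulator, lay between 0.03 and 0.64 in KO C22 and between -1.11 and 0.41 in KO C28. CRIM1 had the lowest of these values in KO C28 (-1.11, SE 0.61), which was -0.72 (SE 0.49) without KO C28 replicate 2.

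Without overlap between lines in Bru-seq and with the same direction in BruUV-seq, 3 members (NUAK2, AXL and DLC1) were higher and 3 (AMOTL1, ANKRD1 and F3) lower in KO C22 than in WT, where 8.11% of 23443 genes were higher and 12.4% lower. In KO C28, 3 members (VGLL3, AXL and DLC1) were higher and 9 lower than in WT, where 12.6% of all genes were higher and 13.3% lower. The 9 were STK4, SAV1, MOB1B, NF2, AMOT, AMOTL1, YAP1, ANKRD1 and CRIM1. This count sets no minimum size. NF2 gave 287 CPM in KO C28 and 289 CPM in WT in BruUV-seq, and the nearest Bru-seq libraries of YAP1 were also close. In KO C28 replicate 2 the reads of VGLL3, DLC1, AMOT and ANKRD1 did not exceed those at background density. For AMOT these were 28 reads against 41.3. The levels of these members in that library are not resolved, and so neither is the place of VGLL3 and DLC1 among the higher. ANKRD1 (0 reads there) and AMOT were counted as lower, and background reads can only raise a level. BruUV-seq alone, with 1 library per line and so no test, was read for members with a mean of at least 100 reads. Past 2-fold, NF2 and AXL were higher and ANKRD1 and F3 lower in KO C22 than in WT among 32 members, where 10.9% of genes were higher and 8.44% lower. In KO C28, 0 of 32 members were higher and 3 lower (AMOT, AMOTL1 and ANKRD1), where 6.37% of genes were higher and 4.78% lower. The members' medians were -0.24 (all genes -0.04) in KO C22 and -0.17 (all genes -0.08) in KO C28.

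The clones were also set against each other. With both assays 8 members lay higher in KO C28 than in KO C22 and 25 lower, with a median log2 fold change of -0.63 against 0.17 over all genes. By edgeR 0 members passed, as did 0.0% of all genes in either direction, limma-voom called 0 and DESeq2 called 1, ANKRD1 (all genes 1.31%). At an unadjusted p under 0.05, F3 was higher and 6 members were lower, where 3.71% of all genes were higher and 2.35% lower. F3 lay at 1.62 (SE 0.50, edgeR adjusted p = 0.733). The 6 lower members were ANKRD1 (-4.87, SE 0.96, adjusted p = 0.316), AMOTL1 (-1.88, SE 0.64), CRIM1 (-1.75, SE 0.63), AMOT (-1.43, SE 0.58), NF2 (-1.24, SE 0.40) and NUAK2 (-1.19, SE 0.54). Without KO C28 replicate 2 NUAK2 lay at -0.68 (SE 0.45) and AMOTL1 at -2.85 (SE 0.55), and in BruUV-seq alone NUAK2 was the higher in KO C28, by 0.45 on the log2 scale. ANKRD1 was lower in KO C28 than in KO C22 by reads as well, with KO C22 over KO C28 at a ratio of 104 (95% counting interval 18.5 to 4132) in Bru-seq and 9.55 (4.29 to 25.05) in BruUV-seq. Without overlap, 2 members (MOB1A and F3) were higher and 10 lower in KO C28, where 8.4% of all genes were higher and 8.25% lower. In BruUV-seq alone, 3 of 31 members (AMOTL2, TEAD3 and F3) were higher past 2-fold and 3 (NF2, AMOT and AMOTL1) lower, where 4.78% of genes were higher and 8.28% lower. The median depended on single libraries, at -0.34 without Bru-seq KO C28 replicate 2, -0.32 without Bru-seq KO C22 replicate 2 and -0.97 without BruUV-seq KO C22.

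Bru-seq replicates of a clone differed in 1 direction over most long members. Among the 10 members of at least 100 kb, Bru-seq replicate 2 stood above replicate 1 in all 10 in KO C22, with a median log2 difference of 1.21 (all genes of that length 0.27, 56.4% above). In KO C28 replicate 2 stood above replicate 1 in 1 of 10, with a median of -1.25 (all genes of that length 0.88, 56.7% above). WT replicates had 4 of 10 above and a median of -0.09 (all genes of that length -0.27, 37.8% above). Of the 12 members of 25 to 100 kb, 11 stood above in KO C22 (median 0.86) and 3 in KO C28 (median -0.86). Of all genes of that length, 56.9% stood above in KO C22 (median 0.16) and 56.3% in KO C28 (median 0.29). Single short members differed as much, such as CCN2 by 2.78 in KO C28, FJX1 by -2.18 in KO C22 and TEAD3 by 2.28 in WT. KO C22 replicate 1 and KO C28 replicate 2 also had the highest background densities, 558 and 623 reads per Mb, against 53.4 to 193 in the other libraries. These densities are not scaled to depth, which was 18.3 M reads in genes for KO C22 replicate 1 and 5.64 M for KO C28 replicate 2. Relative to depth the background of KO C28 replicate 2 was thus the higher. After subtraction of that background the members' Bru-seq medians were 0.31 in KO C22 and -0.56 in KO C28, and 0 members passed in either clone.

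**Figure D3:**
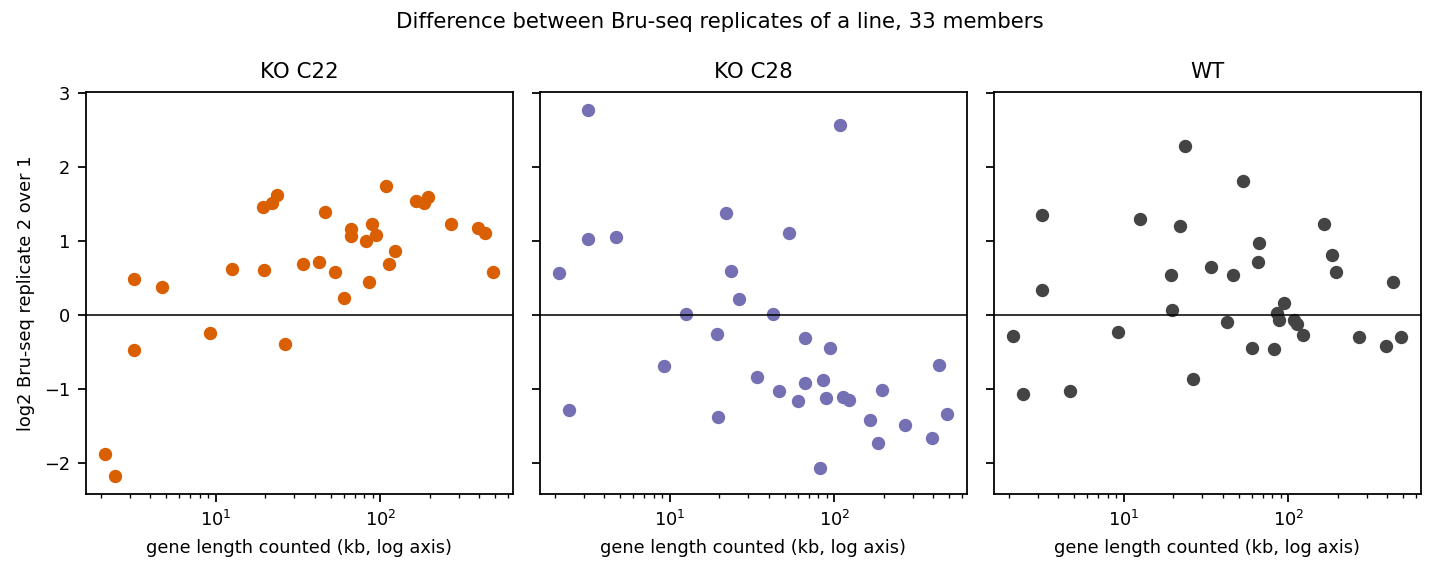
Log2 of Bru-seq replicate 2 over replicate 1 against counted gene length (kb, log axis) for the 33 members in KO C22, KO C28 and WT; each point is 1 member. At 100 kb or more all 10 points lie above 0 in KO C22 and 9 of 10 lie below 0 in KO C28.

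UV light before labelling stalls polymerases at lesions, so that signal is kept near gene starts and lost from the far parts of long genes. The members followed their length in BruUV-seq against Bru-seq. Of the 11 members under 25 kb, 10 were higher after UV light, where 61.6% of all tested genes of that length were, and F3 was the exception. Of the 12 members of 25 to 100 kb, 6 were higher (all genes 33.8%), and of the 10 of at least 100 kb, 0 were (all genes 12.6%). Spearman's correlation of length with the log2 fold change was -0.76 over 33 members and -0.43 over all tested genes, and for members -0.71 in KO C22, -0.55 in KO C28 and -0.72 in WT. These correlations run across genes that share libraries and are a description.

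**Figure D4:**
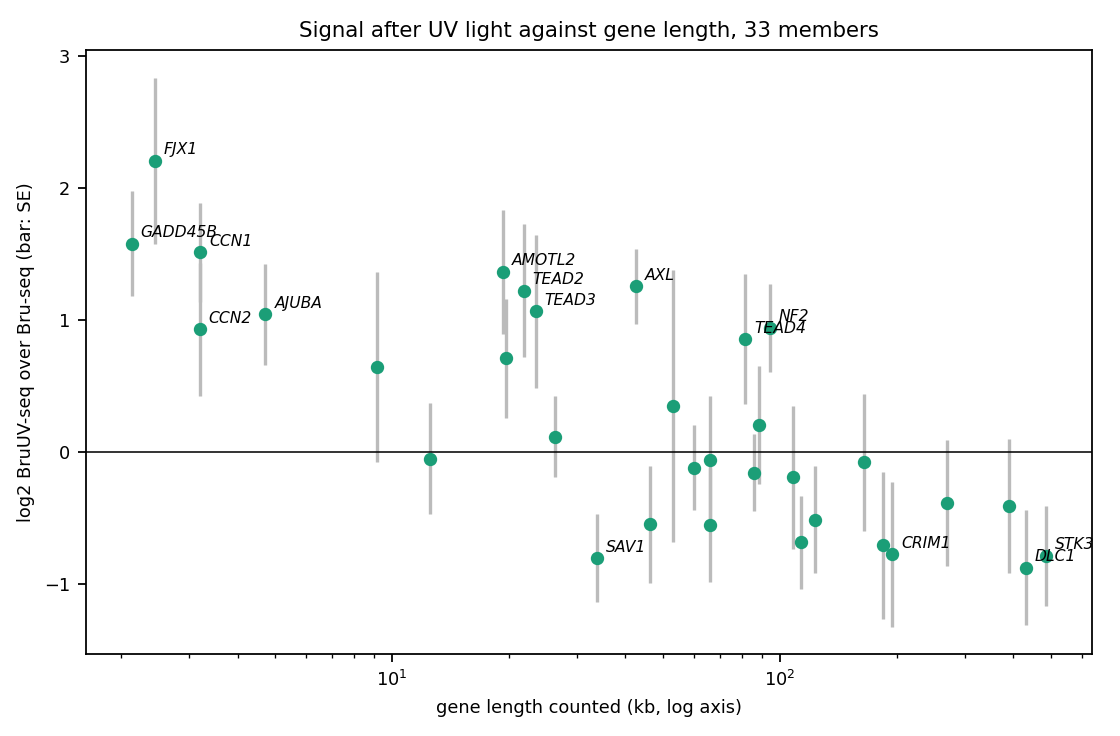
Log2 fold change of BruUV-seq over Bru-seq against counted gene length (kb, log axis) for the 33 members, from the edgeR fit with line as a covariate; bars are standard errors. Points under 10 kb lie between 0.65 and 2.21, and all 10 points at 100 kb or more lie below 0.

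Over all lengths 16 members lay above 0 and 17 below, with a median near 0 (-0.05) whose sign changed when single libraries were left out (-0.10 to 0.39). By edgeR 0 members passed in BruUV-seq against Bru-seq, as did 0.00427% of all genes in the higher and 0.0% in the lower direction, limma-voom called 0 and DESeq2 called 7, where it called 19.8% of the 20716 genes it gave an adjusted p. At an unadjusted p under 0.05, 8 members were higher and 1 lower, where 10.7% of all genes were higher and 12.7% lower. FJX1 gave 12.9 CPM in BruUV-seq against 5.42 and 1.12 CPM in Bru-seq of KO C22, 14.6 CPM against 2.77 and 1.07 CPM in KO C28, and 8.29 CPM against 3.56 and 1.64 CPM in WT. GADD45B gave 53.2 CPM in BruUV-seq against 27.9 and 7.51 CPM in Bru-seq of KO C22, 51.6 CPM against 19.0 and 28.3 CPM in KO C28, and 57.6 CPM against 16.1 and 13.2 CPM in WT. Both short genes were higher after UV light in every line, FJX1 by 2.21 (SE 0.63, edgeR adjusted p = 0.143) and GADD45B by 1.58 (SE 0.40, adjusted p = 0.122) on the log2 scale. CCN1 (1.51, SE 0.37), AMOTL2 (1.36, SE 0.47), AXL (1.26, SE 0.28), TEAD2 (1.22, SE 0.50), AJUBA (1.04, SE 0.38) and NF2 (0.94, SE 0.33) were the other higher members, and SAV1 the lower (-0.81, SE 0.33). AXL (42564 bases) and NF2 (94441 bases) were the longest of the 8 higher members.

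The call depends on KO C28 replicate 2. Without it 7 members passed as higher (AJUBA, AXL, CCN1, CCN2, FJX1, GADD45B and TEAD2), against 9.01% of 21986 genes, and 3 as lower (SAV1, STK3 and STK4), against 6.02%. CCN1 then lay at 1.69 (SE 0.27, edgeR adjusted p = 0.0119).

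Further genes of the pathway were read as lists beside the members. Of 44 genes upstream of or associated with the cascade, such as TAOK and MAP4K kinases and striatin-complex subunits, 41 were tested and 0 passed in either clone by edgeR with both assays. In KO C22, 32 lay above WT and 9 below (median 0.23, with 1 higher and 1 lower at an unadjusted p under 0.05), and in KO C28, 15 lay above and 26 below (median -0.30, with 2 higher and 3 lower). Of 22 further YAP-TEAD response genes 21 were tested and 0 passed. PTPN14 stands in both lists, so their counts are not independent. In KO C22, 16 lay above WT and 5 below (median 0.63, with 4 higher and 1 lower at an unadjusted p under 0.05), and in KO C28, 11 lay above and 10 below (median 0.15, with 3 higher and 2 lower). Over all genes, 2.59% were higher and 2.76% lower at that threshold in KO C22, and 8.1% higher and 2.64% lower in KO C28. DESeq2 called 1 of the upstream genes and 4 of the further response genes in KO C22, where it called 1.71% of all genes. In KO C28 it called 2 of each list, where it called 3.91% of all genes. Limma-voom called 1 gene of each list in KO C22, where it called 0.205% of all genes, and 0 in KO C28. Without KO C28 replicate 2 the KO C28 medians were -0.0024 for the upstream genes and 0.40 for the further response genes.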

How the data were processed

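Per the submitters' processing notes, CASAVA 1.8.2, Bowtie2 2.3.3, STAR 2.5.3a and bedtools 2.16.2 were used, with hg38 and GRCh38 named. Which annotation release was used is not stated there. The deposited tables hold an expected count (estimated reads per gene body, often fractional) and an RPKM per gene, both made by the authors. Their columns carry no names, so the units come from the values.

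Counts were rounded and fitted with edgeR 4.0.16 (R 4.3.3): filterByExpr, TMM and the quasi-likelihood F test, with Benjamini-Hochberg adjustment over all genes at 0.05. The 6 Bru-seq libraries were fitted with 1 coefficient per line (22827 genes, common biological coefficient of variation 79.3%), and all 9 with line and assay (23443 genes, 70.9%). Standard errors are those of the model. BruUV-seq ratios between lines use a prior count of 2. Alternatives were DESeq2 1.42.0, limma-voom (limma 3.58.1), other size factors, no filter, a length offset, a replicate block, background subtraction and leaving out each library. The fitting code was run on simulated counts with known folds. These had the same dispersion for all genes, no assay difference and no library that stood apart but for depth. That run therefore does not give error rates for these data.

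Members are all named, by role, and those with an unadjusted p under 0.05 in a clone against WT, with YAP1, WWTR1, the TEAD genes, ANKRD1, CCN1 and CCN2, have values per library. Members and lists were chosen with earlier results of these data known. No label states separate cultures for the replicates, so the p-values describe the spread among these samples, which may be technical. Depth sets the precision, and reads without molecular identifiers hold PCR copies.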

Additional observations from a re-analysis of the deposited data

How the results depend on the processing

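Members called in a clone against WT under any alternative were limited to ANKRD1 and AMOTL1 in KO C28. Genes called in KO C22 Bru-seq (1) became 91 with DESeq2, 0 with limma-voom, 2 with RLE size factors, 43 with no filter on low counts and 0 after background subtraction. In KO C28 Bru-seq (1) they became 205, 0, 190 and 0 with DESeq2, limma-voom, no filter and background subtraction, and members called became 1 with DESeq2 and 2 with no filter. With both assays, genes called in KO C22 (37) became 347 with DESeq2, 272 with no filter and 13 after background subtraction. In KO C28 (23) they became 685 with DESeq2, 1100.0 with no filter, 37 with a length offset and 15 after background subtraction, with 2, 2 and 1 members called under the first 3. For KO C28 against KO C22 (0) they became 236, 230, 3 and 4 under those settings, with 1 and 2 members under DESeq2 and no filter. For BruUV-seq against Bru-seq (1) they became 4109 with DESeq2 (7 members), 150 with limma-voom, 2326 with no filter (5 members), 5 with a length offset and 0 after background subtraction, and the members' median became 0.49 with the length offset.

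Leaving out 1 library at a time gave 0 to 22 genes called in KO C22 Bru-seq, 0 to 179 in KO C28 Bru-seq, 3 to 142 in KO C22 and 1 to 67 in KO C28 with both assays, 0 to 18 between the clones and 0 to 3305 for BruUV-seq. Members called ranged over 0 to 1 in KO C28 Bru-seq, 0 to 2 in KO C28 with both assays and 0 to 10 for BruUV-seq, and the median in KO C28 Bru-seq over -1.67 to -0.26. The cause of these changes was not tested. The members' median in KO C22 also changed sign without Bru-seq KO C22 replicate 2 (-0.04 in Bru-seq, -0.11 with both assays) and with a length offset in both assays (-0.02). Members whose sign changed numbered 0 to 7 in the clones and 0 to 12 for BruUV-seq (12 with the length offset) under the other settings, and 0 to 11 when a library was left out. Of the members with an unadjusted p under 0.05 in the main edgeR fits, 0 changed sign in any comparison. They were picked by that p from the same libraries, so a kept sign is no separate support.

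The replicate numbers did not pair the libraries alike in all lines. Deviations of same-numbered libraries correlated at -0.48 (KO C28 and KO C22), 0.43 (KO C22 and WT) and 0.00 (KO C28 and WT). Across genes, Bru-seq WT replicate 1 was closest to KO C28 replicate 1 (0.956), and WT replicate 2 to KO C22 replicate 2 (0.954). These libraries thus lay nearer to another line than to the other replicate of their own. With the replicate block 0 genes passed in either clone in Bru-seq, and 46 in KO C22 and 38 in KO C28 with both assays, and 0 members passed in these fits. A block with the KO C28 numbers crossed gave 9 genes and 0 members between the clones. Background subtraction and the crossed block were chosen after seeing the data. KO C28 replicate 2, at 5.64 M reads in genes, limits what can be read for low members such as VGLL3, DLC1, AMOT, AMOTL1 and TEAD4.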
